A study of Mus musculus with 9 samples.

Results

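The genes described here are 40 mouse genes of interferon signalling: the receptor chains, the transcription factors that act behind them, and genes that interferons switch on. They were taken by symbol from the 55488 genes listed for each of 9 RNA sequencing libraries, and all 40 were found. Of these, 38 reached 1 TPM or more in at least 3 libraries and were tested, and Zbp1 and Ifit3 did not. The unit, TPM, is a length-scaled share of the transcripts of a library.

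Each library held 100 sorted cells from C57BL/6 fetal liver at embryonic day 14.5, with 3 libraries in each of 3 groups. Evi1 HSC were GFP+ CD150+ CD48- cells of the c-Kit+ Sca-1+ Lin- fraction, a gate for haematopoietic stem cells (HSC), from Tie2-Cre::ROSA-Evi1 embryos. WT HSC passed the same surface gate, with no GFP criterion, and came from embryos labelled ROSA-Evi1 with no Cre. WT KL, a gate of committed progenitors (c-Kit+ Sca-1- Lin-), came from the genotype of WT HSC. All 3 groups therefore carried the ROSA-Evi1 allele. Evi1 HSC alone carried Tie2-Cre, a recombinase active in endothelium and in most blood cells and so not restricted to the sorted gate. Evi1 is a zinc finger transcription factor made from the Mecom gene. The labels do not say whether replicates came from separate embryos or litters, so p-values measure the spread between these libraries, which may be technical.

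The libraries labelled WT HSC replicate 3 and WT KL replicate 1 went against their labels. Mecom stood at 209, 176 and 209.7 TPM in Evi1 HSC, 161 and 114 TPM in WT HSC replicates 1 and 2, and 0.0107 and 0.325 TPM in WT KL replicates 2 and 3. The 2 libraries against their labels held 0.0167 and 90.8 TPM, in that order. In the same order they held 0.631 and 164 TPM of Hlf, which encodes a transcription factor of stem cells, and 579 and 13.6 TPM of Mpo, which encodes the myeloperoxidase of myeloid progenitors. Neither library was moved to another group. Statements below about WT HSC, WT KL or HSC-gate libraries leave these 2 out, unless they are named or 9 libraries are given. The HSC-gate libraries are then those of Evi1 HSC and WT HSC replicates 1 and 2. Each comparison was fitted over the 9 libraries as labelled and over the 7 that were not against their labels. The 7 were thus chosen by expression in these same data. Their p-values rest on that choice and do not cover doubt about the labels. Values are given in the order Evi1 HSC replicates 1, 2 and 3, WT HSC replicates 1 and 2, WT KL replicates 2 and 3, and then, in brackets, the libraries labelled WT HSC replicate 3 and WT KL replicate 1. Log2 fold changes subtract group means of log2(TPM + 1), over the 7 libraries unless 9 are named, and a gene was called at a limma Benjamini-Hochberg adjusted p under 0.05. Each group then holds 3, 2 and 2 libraries. The log2(TPM + 1) scale understates the change of low genes. In bulk libraries, fewer cells of a type and less RNA per cell cannot be told apart.

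Type I interferons bind a receptor of Ifnar1 and Ifnar2 and act through the kinases Jak1 and Tyk2 on factors such as Stat2, which joins Irf9 in a complex that binds the interferon-stimulated response element (ISRE). Type II interferon binds Ifngr1 and Ifngr2 and acts at the gamma-activated site (GAS). The genes switched on encode RNA sensors, antiviral effectors and GTPases, and some are known to be kept active without infection in stem cells. Before birth, interferon signalling is also known to bear on the formation and activation of blood stem cells.

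RefSeq promoters (GRCm38.p6, 250 bases before to 50 bases after a start site) were matched for 31 of the 40 genes. The ISRE was searched as GAAANNGAAA on both strands and the GAS as TTCNNNGAA, which reads the same on both strands. In some genes, matches overlapped. An ISRE match was present in 15 of 31 genes (48.4%), against 3.99% of 27025 genes with a promoter and 3.61% of those tested. A GAS match was present in 11 of 31 (35.5%), against 9.55% and 8.14%. Since the 40 genes were listed for their part in the interferon response, these higher shares are no separate evidence of it. Rtp4, Parp14, Zbp1, Usp18, Ifi27, Dhx58, Parp9, Mx2 and Mx1 had no entry. The 8 stretches that follow are shown because they belong to genes the results turn on and hold one or both motifs in capitals. Each runs 5′ to 3′ on the gene's strand, with motifs on the other strand reading TTTCNNTTTC.
Isg15, chr4:156200845-156200926, minus strand: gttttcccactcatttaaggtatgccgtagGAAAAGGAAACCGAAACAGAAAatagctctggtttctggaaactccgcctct
Ifit1, chr19:34640755-34640843, plus strand: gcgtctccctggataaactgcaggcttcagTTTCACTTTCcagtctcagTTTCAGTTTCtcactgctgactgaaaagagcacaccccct
Oas1a, chr5:120907526-120907653, minus strand: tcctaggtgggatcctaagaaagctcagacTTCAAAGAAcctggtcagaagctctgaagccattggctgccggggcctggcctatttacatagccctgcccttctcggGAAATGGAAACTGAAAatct
Bst2, chr8:71537557-71537638, minus strand: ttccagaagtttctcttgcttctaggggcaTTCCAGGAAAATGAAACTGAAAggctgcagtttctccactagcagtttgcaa
Gbp2, chr3:142620574-142620643, plus strand: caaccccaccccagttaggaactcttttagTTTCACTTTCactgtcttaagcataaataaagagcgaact
Gbp7, chr3:142530200-142530322, plus strand: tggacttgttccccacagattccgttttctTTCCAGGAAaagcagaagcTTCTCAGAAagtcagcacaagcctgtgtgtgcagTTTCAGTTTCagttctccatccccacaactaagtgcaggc
Igtp, chr11:58199481-58199555, plus strand: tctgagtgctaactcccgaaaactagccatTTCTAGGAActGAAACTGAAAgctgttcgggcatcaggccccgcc
Irf1, chr11:53769894-53769962, plus strand: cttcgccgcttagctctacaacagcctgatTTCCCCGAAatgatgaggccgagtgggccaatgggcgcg

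Isg15 had 3 ISRE matches that overlapped one another, from base -78 to base -57 counted from the start base as 0. In Bst2 a GAS match ran into 2 overlapping ISRE matches, from base -136 to base -115. Irf1 had 1 GAS match, from base -90 to base -82, and no ISRE match in its window. Gbp7 had 2 GAS matches and 1 ISRE match. Among genes with a promoter entry, an ISRE match was present in 12 of the 21 that were called higher in WT HSC than in WT KL (57.1%) and in 3 of the 10 that were not called or not tested (30%). A match describes letters in the window and does not show that a factor was bound.

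The summed level of the 40 genes was higher in each HSC-gate library than in both WT KL libraries. It was 865, 1387 and 802 TPM in the Evi1 HSC libraries, 651 and 697 TPM in WT HSC and 296 and 252 TPM in WT KL (269 and 726 TPM in the libraries against their labels). The median gene stood at 15.4, 29.7 and 14.6 TPM in Evi1 HSC, 10.6 and 11.3 TPM in WT HSC, and 1.36 and 1.25 TPM in WT KL (1.24 and 13.1 TPM). In both WT KL libraries 17 of the 40 genes were under 1 TPM and 21 were at 1 TPM or more. The 4 receptor chains made up 148 and 124 TPM of the WT KL sums, and they held 145 to 157 TPM in the HSC-gate libraries. Evi1 HSC replicate 2 held the most on both measures. At a higher level, 28, 34 and 27 of the 40 genes reached 10 TPM in Evi1 HSC, 21 and 23 did in WT HSC, and 10 and 7 did in WT KL (6 and 25). The 10 housekeeping genes such as Actb and Tbp were at 0 in none of the 9 libraries. Their lowest value was 7.44 TPM, for Tbp, so they do not bear on the detection of genes near 1 TPM. Over all genes, 18446 and 18806 reached 1 TPM in WT HSC and 15819 and 15550 in WT KL (15422 and 18575 in the libraries against their labels). The part of detection in the low WT KL values was not tested.

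**Figure D1:**
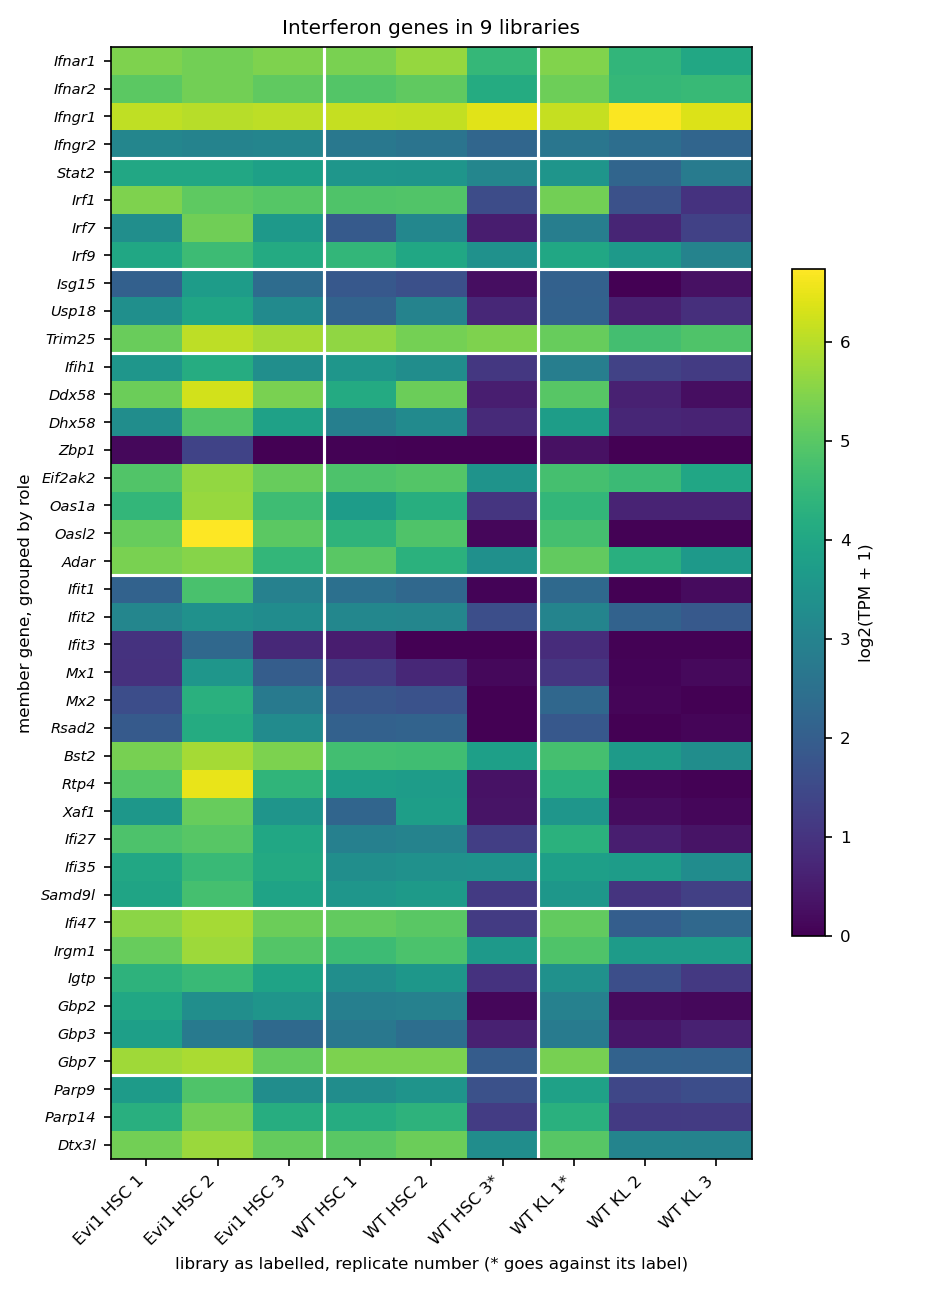
Level of each of the 40 genes (rows, grouped by role with white lines) in each of the 9 libraries (columns), as log2(TPM + 1), with asterisks on the 2 libraries that went against their labels. Most rows are bright in Evi1 HSC, WT HSC replicates 1 and 2 and the library labelled WT KL replicate 1 and dark in the other 3 libraries, while Ifngr1 is bright in all 9 and Zbp1 is dark in 8.

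In WT HSC against WT KL, 27 of the 40 genes were called higher and 0 lower, 11 were tested and not called, and 2 were not tested. Among all 19461 genes tested, 37.5% were called, 26.7% higher and 10.8% lower. The median log2 fold change of the 40 genes was 1.85, against 0.26 over all genes tested. WT HSC replicates 1 and 2 both lay above WT KL replicates 2 and 3 in 37 of the 40 genes, against 47.4% of genes tested, and both lay below in 1, Ifngr1, against 25.2%. Of the 27 called genes, 14 were at 1 TPM or more in both WT KL libraries and 12 under 1 TPM in both, with Irf1 at 1 TPM or more in 1. Those 12 met the filter of 1 TPM in 3 libraries only through other libraries, so they could hardly be called lower. The same filter applied to all genes tested. With quantile normalisation, which moved the median of all genes from 0.26 to -0.10 and the split of all calls from 5203 higher and 2104 lower to 2999 and 3155, 16 of the 40 genes were called higher and 0 lower. The 11 calls lost there were those of Ifnar2, Stat2, Isg15, Usp18, Dhx58, Ifit2, Rsad2, Xaf1, Irgm1, Gbp3 and Parp9 (adjusted p 0.0504 to 0.250), and the other 16 held under every alternative run. Over the 9 libraries as labelled, 0 were called by limma (adjusted p 0.963 to 0.995), 0 had an unadjusted p under 0.05 (1.45% of all genes did), and 0.00514% of all genes were called.

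In Evi1 HSC against WT KL, which shares the WT KL libraries, 37 of the 40 genes were called higher, 1 was called lower and 2 were not tested. Gate, genotype and GFP selection differed together there and cannot be told apart. Tested genes under 1 TPM in both WT KL libraries passed the filter only through other libraries, so they could hardly be called lower. Of all genes tested, 45.5% were called, 31.3% higher and 14.3% lower. The median log2 fold change was 2.51, against 0.28 over all genes tested. With quantile normalisation, which took that median over all genes to -0.08 and the split of all calls from 6087 higher and 2776 lower to 3663 and 4014, 30 of the 40 genes were called higher and 0 lower. The 8 calls lost there were those of Ifngr1, Ifngr2, Irf9, Trim25, Adar, Mx1, Mx2 and Ifi35 (adjusted p 0.0501 to 0.266). Over the 9 libraries as labelled, limma called 0 of the 40 (adjusted p 0.310 to 0.433) and 0.0103% of all genes, and 25 of the 40 had an unadjusted p under 0.05, all higher in Evi1 HSC, against 15.2% of all genes. Without the library labelled WT KL replicate 1, 2 of the 40 were called, Bst2 and Ifi27. Of all 19461 genes tested, 96 were called there, 35 higher and 61 lower.

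The 4 receptor chains were present in all 9 libraries, with Ifnar1 and Ifnar2 called higher in WT HSC than in WT KL and Ifngr1 called lower in Evi1 HSC than in WT KL. Ifnar1, a chain of the type I interferon receptor, stood at 41.9, 38.6 and 42 TPM in Evi1 HSC, 40.3 and 50.1 TPM in WT HSC, and 20.7 and 15.4 TPM in WT KL (21.4 and 43.2 TPM in the libraries against their labels). Both WT HSC libraries lay above both WT KL libraries, with a log2 fold change of 1.29 ± 0.18 (SE, adjusted p = 0.00241). Ifnar2, the other chain, stood at 31.9, 38 and 33.3 TPM in Evi1 HSC, 29.7 and 33 TPM in WT HSC, and 21.2 and 22.4 TPM in WT KL (16.8 and 37 TPM). It was also higher in WT HSC, by 0.5 on the log2 scale (adjusted p = 0.0332), a call lost when WT HSC replicate 1 or 2 or WT KL replicate 2 or 3 was left out (adjusted p 0.0628 to 0.144). Ifngr1, the ligand-binding chain of the type II receptor, had the reverse order, at 66.6, 62.8 and 65.9 TPM in Evi1 HSC, 69.9 and 68.7 TPM in WT HSC, and 101 and 82.6 TPM in WT KL (84.6 and 69.6 TPM). Every Evi1 HSC library and WT HSC replicates 1 and 2 lay below WT KL replicates 2 and 3. The log2 fold change was -0.49 ± 0.12 (SE, adjusted p = 0.0158) in Evi1 HSC against WT KL, where the call was lost with quantile normalisation and when WT KL replicate 2 was left out (adjusted p = 0.0971), and -0.4 ± 0.13 (SE, adjusted p = 0.0526) in WT HSC against WT KL, called only when WT KL replicate 3 was left out (adjusted p = 0.0401) among the libraries left out in turn. Ifngr2, its partner chain, stood at 7.54, 7.06 and 7.41 TPM in Evi1 HSC, 5.51 and 4.97 TPM in WT HSC, and 4.4 and 3.62 TPM in WT KL (3.64 and 5.25 TPM). It was higher in Evi1 HSC than in WT KL, by 0.74 (adjusted p = 0.00998), a call lost when WT KL replicate 3 was left out (adjusted p = 0.073) and with quantile normalisation (0.23, adjusted p = 0.266). It was not called in WT HSC against WT KL (0.32, adjusted p = 0.2), where quantile normalisation turned the value to -0.23.

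Irf1, a transcription factor that type II interferon induces through GAS sites, was called higher in WT HSC than in WT KL. It stood at 42, 32.5 and 29.9 TPM in Evi1 HSC, 28.6 and 29.2 TPM in WT HSC, and 2.17 and 0.968 TPM in WT KL (1.95 and 38.7 TPM in the libraries against their labels). All 5 HSC-gate libraries lay between 28.6 and 42.0 TPM and both WT KL libraries at or under 2.17 TPM, and the log2 fold change of WT HSC against WT KL was 3.58 ± 0.27 (SE, adjusted p = 0.000207). Stat2, a factor of the type I complex, stood at 15.4, 15.5 and 13.1 TPM in Evi1 HSC, 10.6 and 10.4 TPM in WT HSC, and 3.6 and 5.94 TPM in WT KL (7.5 and 10.4 TPM). It was called higher in WT HSC than in WT KL (log2 fold change 1.03 ± 0.23 SE, adjusted p = 0.0131), with no overlap between the 3 groups, a call lost when WT HSC replicate 1 or 2 or WT KL replicate 2 was left out (adjusted p 0.0539 to 0.0585). Irf9, the DNA-binding part of that complex, stood at 15.1, 23.5 and 16.5 TPM in Evi1 HSC, 21 and 15.1 TPM in WT HSC, and 11.4 and 7.1 TPM in WT KL (9.55 and 15.2 TPM). Its WT HSC libraries lay above WT KL but missed the threshold (log2 fold change 0.91 ± 0.3 SE, adjusted p = 0.0518), which it met when Evi1 HSC replicate 2 was left out (adjusted p = 0.0446). Irf7, a factor that raises interferon production and is itself strongly induced, stood at 8.98, 37.6 and 11.4 TPM in Evi1 HSC, 2.71 and 7.64 TPM in WT HSC, and 0.614 and 1.48 TPM in WT KL (0.448 and 6.3 TPM). WT HSC replicate 1 lay closer to WT KL than to WT HSC replicate 2, and Evi1 HSC replicate 2 lay above every other library. It was not called in WT HSC against WT KL (log2 fold change 1.5 ± 0.69 SE, adjusted p = 0.132) but was when Evi1 HSC replicate 2 was left out (adjusted p = 0.0462).

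Of the 3 genes of the ISG15 system, Isg15 and Usp18 were called higher in WT HSC than in WT KL and Trim25 was not. Isg15, a ubiquitin-like protein joined to other proteins, stood at 3.15, 12.1 and 4.19 TPM in Evi1 HSC, 2.64 and 2.1 TPM in WT HSC, and 0 and 0.222 TPM in WT KL (0.194 and 3.24 TPM in the libraries against their labels). It was listed at 0 in 1 WT KL library and below 1 TPM in the other, and was called with an adjusted p of 0.0484 (log2 fold change 1.6), a call lost when Evi1 HSC replicate 3, WT HSC replicate 1 or 2 or WT KL replicate 2 or 3 was left out (adjusted p 0.0615 to 0.182). Usp18, the protease that removes ISG15 and limits the type I receptor, stood at 9.2, 14.4 and 8.25 TPM in Evi1 HSC, 3.43 and 6.98 TPM in WT HSC, and 0.511 and 0.869 TPM in WT KL (0.689 and 3.32 TPM). It was called higher in WT HSC than in WT KL by 1.82 (adjusted p = 0.00862), a call lost when WT KL replicate 2 was left out (adjusted p = 0.0562). Trim25, a ubiquitin ligase that acts on the sensor RIG-I, stood at 35.3, 65.7 and 55.5 TPM in Evi1 HSC, 47.9 and 39.2 TPM in WT HSC, and 25.4 and 28.6 TPM in WT KL (41.8 and 35.2 TPM). Its levels were high in all 9 libraries, and WT HSC against WT KL was not called over the 7 libraries (0.67, adjusted p = 0.107). It was called when Evi1 HSC replicate 1 was left out (adjusted p = 0.0285) and with the compared groups only.

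Of the 8 RNA and DNA sensors, 5 were called higher in WT HSC than in WT KL, 2 were not called and Zbp1 was not tested. Oasl2, an oligoadenylate synthetase-like protein, stood at 35.2, 105 and 31.7 TPM in Evi1 HSC, 19.9 and 28.3 TPM in WT HSC, and 0.0279 and 0.0291 TPM in WT KL (0.0832 and 25.6 TPM in the libraries against their labels). Every Evi1 HSC library and WT HSC replicates 1 and 2 were at 19.9 TPM or more. WT KL replicates 2 and 3 were at 0.0291 TPM or less, with a log2 fold change of 4.59 ± 0.54 (SE, adjusted p = 0.00116) in WT HSC against WT KL. Ddx58, which encodes RIG-I, a sensor of viral RNA ends, stood at 36.5, 75.5 and 40.8 TPM in Evi1 HSC, 16.4 and 36.2 TPM in WT HSC, and 0.528 and 0.183 TPM in WT KL (0.469 and 30.9 TPM). It was called with a log2 fold change of 4.24 ± 0.45 (SE, adjusted p = 0.000796), and WT HSC replicate 1 held less than WT HSC replicate 2. Ifih1, which encodes the long RNA sensor MDA5, stood at 10.6, 17.1 and 9.11 TPM in Evi1 HSC, 10.5 and 8.82 TPM in WT HSC, and 1.52 and 1.23 TPM in WT KL (1.13 and 6.4 TPM). Dhx58, which encodes the regulator LGP2, stood at 8.84, 28.7 and 13.5 TPM in Evi1 HSC, 6.52 and 8.36 TPM in WT HSC, and 0.658 and 0.589 TPM in WT KL (0.743 and 12.5 TPM). Both were low in WT KL and were called, with log2 fold changes of 2.16 (adjusted p = 0.002) and 2.37 (adjusted p = 0.00865), the latter lost when WT HSC replicate 2 or WT KL replicate 3 was left out (adjusted p 0.0517 to 0.0534).

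Oas1a, an oligoadenylate synthetase activated by double-stranded RNA, stood at 20.9, 50.9 and 24.1 TPM in Evi1 HSC, 12.1 and 17.5 TPM in WT HSC, and 0.602 and 0.579 TPM in WT KL (1.04 and 21.1 TPM in the libraries against their labels). Its log2 fold change in WT HSC against WT KL was 3.29 ± 0.41 (SE, adjusted p = 0.00144), with the HSC-gate libraries all at 12.1 TPM or more and WT KL under 1 TPM. Eif2ak2, the kinase PKR that halts translation on double-stranded RNA, stood at 28.9, 49 and 34.8 TPM in Evi1 HSC, 28 and 29.3 TPM in WT HSC, and 23.1 and 14.9 TPM in WT KL (9.9 and 25.6 TPM). Adar, which edits adenosines in double-stranded RNA, stood at 40.3, 44.3 and 20.9 TPM in Evi1 HSC, 31.5 and 18.7 TPM in WT HSC, and 18 and 11.6 TPM in WT KL (9.39 and 33.8 TPM). Neither was called in WT HSC against WT KL (0.6, adjusted p = 0.144, and 0.71, adjusted p = 0.221), and both were substantial in WT KL. Zbp1, a sensor of Z-form nucleic acids, was at 1.58 TPM in Evi1 HSC replicate 2 and at or under 0.23 TPM in the other 8 libraries.

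**Figure D2:**
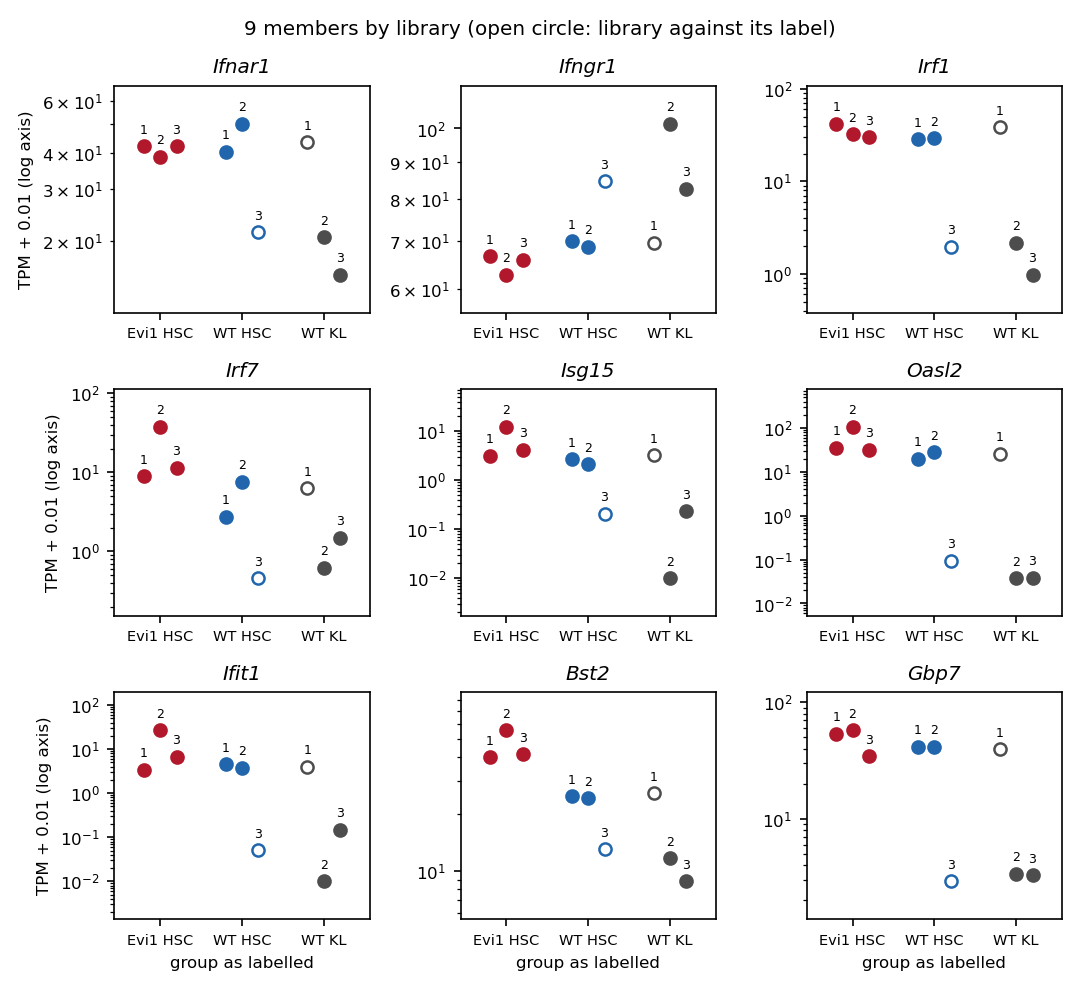
TPM of 9 of the genes (log axes, with 0.01 added so that values of 0 can be drawn) in each library, by group as labelled, with replicate numbers and open circles for the 2 libraries against their labels. Ifnar1, Irf1, Oasl2, Bst2 and Gbp7 separate the HSC gates from WT KL replicates 2 and 3, Ifngr1 has the reverse order, and Evi1 HSC replicate 2 is the highest point for Irf7, Isg15, Oasl2, Ifit1, Bst2 and Gbp7.

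Among the 12 antiviral effectors, 7 were called higher in WT HSC than in WT KL, 4 were not called and Ifit3 was not tested. Bst2, the membrane protein tetherin that holds budding virus at the cell, stood at 40.04, 55.6 and 41.4 TPM in Evi1 HSC, 24.9 and 24.2 TPM in WT HSC, and 11.7 and 8.8 TPM in WT KL (13 and 25.7 TPM in the libraries against their labels). The 3 groups did not overlap, with Evi1 HSC highest, and the log2 fold change of WT HSC against WT KL was 1.2 ± 0.21 (SE, adjusted p = 0.00534). Rtp4, a chaperone of membrane receptors that is strongly interferon-induced, stood at 29.8, 90.3 and 20.1 TPM in Evi1 HSC, 12.7 and 12.1 TPM in WT HSC, and 0.0566 and 0.0184 TPM in WT KL (0.264 and 18.2 TPM). Both WT KL libraries were at 0.0566 TPM or less and the log2 fold change was 3.69 ± 0.61 (SE, adjusted p = 0.00423). Ifi27, a mitochondrial interferon-induced protein, stood at 28.1, 30.7 and 15.1 TPM in Evi1 HSC, 6.61 and 7.05 TPM in WT HSC, and 0.467 and 0.271 TPM in WT KL (1.39 and 18.6 TPM). Its groups did not overlap either, and WT HSC lay above WT KL by 2.52 ± 0.33 (SE, adjusted p = 0.00181).

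Ifit1 binds foreign RNA caps and stood at 3.36, 26.8 and 6.78 TPM in Evi1 HSC, 4.58 and 3.8 TPM in WT HSC, and 0 and 0.14 TPM in WT KL (0.041 and 3.92 TPM in the libraries against their labels). WT KL was at or near 0, yet the gene missed the threshold in WT HSC against WT KL (log2 fold change 2.28 ± 0.76 SE, adjusted p = 0.0537), with Evi1 HSC replicate 2 alone several times above the other HSC-gate libraries. It was called when Evi1 HSC replicate 1 or 2 was left out (adjusted p 0.00449 to 0.0267). Ifit2, its neighbour, stood at 7.47, 9.59 and 8.68 TPM in Evi1 HSC, 7.61 and 7.54 TPM in WT HSC, and 3.34 and 2.7 TPM in WT KL (2.08 and 7.21 TPM). It was more even, and WT HSC was called higher than WT KL (1.1, adjusted p = 0.00526), a call lost with quantile normalisation (0.54, adjusted p = 0.0921). Ifit3 was at 3.88 TPM in Evi1 HSC replicate 2 and under 1 TPM in the other 8 libraries.

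Mx1 and Mx2, dynamin-like GTPases that block viral replication, were low in every WT library. Mx1 stood at 0.938, 10.6 and 2.93 TPM in Evi1 HSC, 1.26 and 0.675 TPM in WT HSC, and 0.0391 and 0.116 TPM in WT KL (0.107 and 1.11 TPM in the libraries against their labels). Mx2 stood at 2.02, 18.2 and 5.81 TPM in Evi1 HSC, 2.47 and 2.25 TPM in WT HSC, and 0.0717 and 0 TPM in WT KL (0.0146 and 3.78 TPM). Neither was called in WT HSC against WT KL over the 7 libraries (adjusted p = 0.4 and 0.116), although both WT KL libraries lay below both WT HSC libraries. With the compared groups only, Mx1 (adjusted p = 0.0440) and Mx2 were called. Mx2 was also called with log2(TPM + 0.1) and when Evi1 HSC replicate 1 or 2 was left out (adjusted p 0.0219 to 0.0375 without those replicates). Rsad2, which encodes viperin, an enzyme that makes a chain-terminating nucleotide, stood at 2.73, 16.5 and 8.43 TPM in Evi1 HSC, 3.24 and 3.39 TPM in WT HSC, and 0 and 0.0613 TPM in WT KL (0 and 2.63 TPM). It was called with an adjusted p of 0.0402 (log2 fold change 2.07), a call lost when Evi1 HSC replicate 3, WT HSC replicate 1 or 2 or WT KL replicate 2 or 3 was left out (adjusted p 0.0595 to 0.142), and WT KL was at or near 0.

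Xaf1, a pro-apoptotic interferon-induced protein, stood at 10.8, 34.7 and 10.4 TPM in Evi1 HSC, 3.62 and 12.7 TPM in WT HSC, and 0.177 and 0.091 TPM in WT KL (0.272 and 10.7 TPM in the libraries against their labels). Samd9l, which restrains translation and growth in blood cells, stood at 14.2, 25.7 and 14.1 TPM in Evi1 HSC, 10.7 and 11.8 TPM in WT HSC, and 1.01 and 1.43 TPM in WT KL (1.21 and 10.8 TPM). Both were called higher in WT HSC than in WT KL, Xaf1 by 2.81 (adjusted p = 0.0178) and Samd9l by 2.47 (adjusted p = 0.00143), although WT HSC replicate 1 held much less Xaf1 than replicate 2. The call of Xaf1 was lost when WT HSC replicate 2 or WT KL replicate 2 or 3 was left out (adjusted p 0.0754 to 0.0926). Ifi35, an interferon-induced leucine zipper protein, stood at 15.5, 22.5 and 16 TPM in Evi1 HSC, 9.03 and 9.62 TPM in WT HSC, and 12.1 and 8.7 TPM in WT KL (9.87 and 12.9 TPM). The WT HSC and WT KL libraries overlapped (log2 fold change -0.13 ± 0.24 SE, adjusted p = 0.707), and the Evi1 HSC libraries lay above them all, with 0.73 ± 0.22 (SE, adjusted p = 0.032) against WT KL, a call lost when Evi1 HSC replicate 2 or WT KL replicate 3 was left out (adjusted p 0.0658 to 0.193).

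All 6 interferon-inducible GTPases were called higher in WT HSC than in WT KL. These proteins act on the membranes of vacuoles that hold pathogens. Gbp7 stood at 53.9, 57.7 and 34.4 TPM in Evi1 HSC, 41.5 and 41.5 TPM in WT HSC, and 3.37 and 3.26 TPM in WT KL (2.89 and 39.6 TPM in the libraries against their labels). The HSC-gate libraries all held 34.4 TPM or more and both WT KL libraries 3.37 TPM or less, a log2 fold change of 3.3 ± 0.25 (SE, adjusted p = 0.000214). Ifi47, of the immunity-related GTPases, stood at 45.9, 55.6 and 36.4 TPM in Evi1 HSC, 33.3 and 30.9 TPM in WT HSC, and 3.0 and 3.85 TPM in WT KL (1.26 and 33.7 TPM). On the log2 scale it differed by 2.91 ± 0.22 (SE, adjusted p = 0.000223), again with no overlap. Gbp2 stood at 15.2, 9.05 and 10.3 TPM in Evi1 HSC, 6.44 and 6.79 TPM in WT HSC, and 0.141 and 0.109 TPM in WT KL (0.0866 and 6.82 TPM). WT KL was at 0.141 TPM or less, and the log2 fold change was 2.76 ± 0.26 (SE, adjusted p = 0.000467).

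Gbp3 stood at 12.9, 5.68 and 3.95 TPM in Evi1 HSC, 5.51 and 4.4 TPM in WT HSC, and 0.328 and 0.526 TPM in WT KL (0.539 and 5.98 TPM in the libraries against their labels). Evi1 HSC replicate 1 was the highest library for both Gbp2 and Gbp3. Igtp stood at 19.4, 22.6 and 14 TPM in Evi1 HSC, 9.11 and 10.9 TPM in WT HSC, and 2.07 and 1.18 TPM in WT KL (0.981 and 9.61 TPM). Irgm1, known to be needed for the upkeep of adult blood stem cells under interferon, stood at 34.6, 52.9 and 29.6 TPM in Evi1 HSC, 23.4 and 27.6 TPM in WT HSC, and 11.9 and 11.9 TPM in WT KL (11.6 and 28.1 TPM). It was the most abundant of the 6 in WT KL and had the smallest log2 fold change of the 6, 1.03 (adjusted p = 0.0227), a call lost when WT HSC replicate 1 or 2 or WT KL replicate 2 or 3 was left out (adjusted p 0.0547 to 0.11). Igtp and Gbp3 were called at 2.08 (adjusted p = 0.00189) and 2.06 (adjusted p = 0.0129), the latter lost when WT HSC replicate 1 or WT KL replicate 2 or 3 was left out (adjusted p 0.0568 to 0.0706).

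Parp9, Dtx3l and Parp14 are neighbouring genes whose products modify proteins with ADP-ribose and ubiquitin downstream of interferon. Parp14 stood at 18.1, 38.1 and 17.2 TPM in Evi1 HSC, 17 and 19.6 TPM in WT HSC, and 1.2 and 1.26 TPM in WT KL (1.28 and 18.2 TPM in the libraries against their labels). Its log2 fold change in WT HSC against WT KL was 3.11 ± 0.37 (SE, adjusted p = 0.00116). Dtx3l stood at 38.4, 51.5 and 34.3 TPM in Evi1 HSC, 31.1 and 36 TPM in WT HSC, and 7.21 and 7.13 TPM in WT KL (8.77 and 30.5 TPM). It was called too (log2 fold change 2.08 ± 0.21 SE, adjusted p = 0.000641), with 7.13 TPM or more still present in WT KL. Parp9 stood at 11.9, 28.6 and 8.9 TPM in Evi1 HSC, 8.86 and 10.2 TPM in WT HSC, and 1.69 and 2.02 TPM in WT KL (2.16 and 13.3 TPM). It was called with a log2 fold change of 1.88 (adjusted p = 0.0209), a call lost when WT HSC replicate 1 or 2 or WT KL replicate 2 or 3 was left out (adjusted p 0.0655 to 0.097). The 3 genes lay within 500000 bases of one another on chromosome 16. In each of them every HSC-gate library lay above both WT KL libraries, and the Evi1 HSC and WT HSC libraries overlapped.

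**Figure D3:**
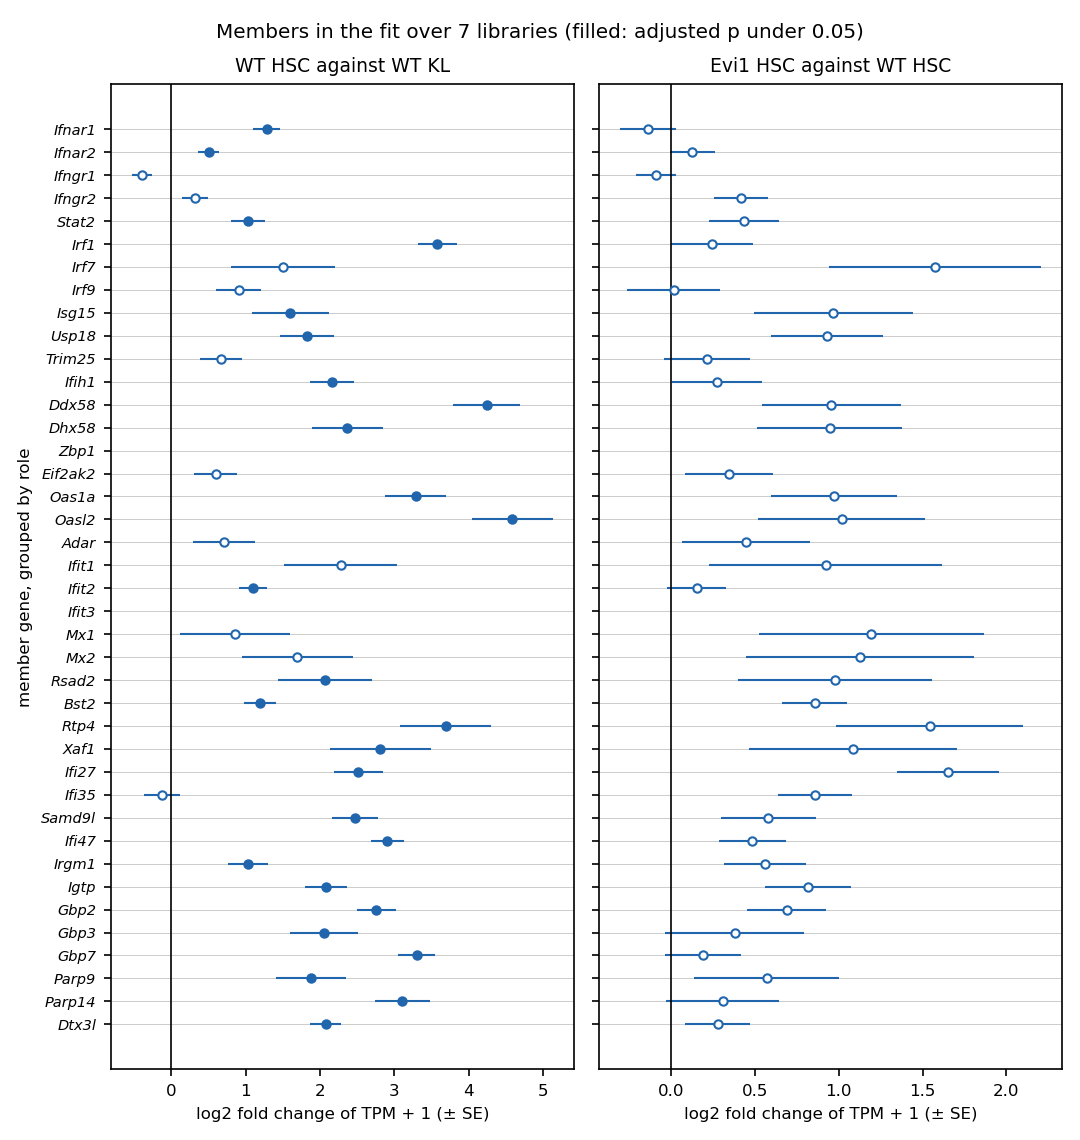
Log2 fold changes of TPM + 1 over 7 libraries (points, with bars of 1 SE) for each of the 40 genes in WT HSC against WT KL and in Evi1 HSC against WT HSC, on axes of different range; filled points had an adjusted p under 0.05, and Zbp1 and Ifit3 were not tested. In the left panel 27 points are filled, and in the right panel 0 are filled, although 36 of the 38 lie above 0.

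Evi1 HSC against WT HSC compares the same surface gate with and without the Cre that acts on the ROSA-Evi1 allele. Only Evi1 HSC were also selected for GFP, so Cre, Evi1 and GFP selection cannot be told apart. There limma called 0 of the 40 genes over the 7 libraries. Adjusted p ran from 0.144 to 0.996, 11 genes had an unadjusted p under 0.05, all higher in Evi1 HSC, and 8.4% of all genes did. Of all genes tested, 0.206% were called, 0.0565% higher and 0.149% lower. The mean was higher in Evi1 HSC for 38 of the 40 genes, with a median log2 fold change of 0.58 against 0.0005 over all genes tested. Each of the 3 Evi1 HSC libraries lay above both WT HSC libraries in 20 of the 40 genes (50%), against 11.8% of genes tested. In 14 of the 40 (35%) they also lay above the library labelled WT KL replicate 1, against 6.90% of genes tested. Over the 9 libraries as labelled, 0 of the 40 were called by limma (adjusted p 0.791 to 0.868), 6 had an unadjusted p under 0.05 (4.66% of all genes did), and 0.00514% of all genes were called. The median was then 1.34, against 0.11 over all genes.

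The smallest adjusted p in that comparison belonged to Ifi27 (log2 fold change 1.65 ± 0.3 SE, adjusted p = 0.144), whose Evi1 HSC libraries held 15.1 to 30.7 TPM against 6.61 and 7.05 TPM in WT HSC, with the library labelled WT KL replicate 1 at 18.6 TPM. Bst2 followed (log2 fold change 0.86 ± 0.19 SE, adjusted p = 0.233), with 40.04 to 55.6 TPM in Evi1 HSC, 24.9 and 24.2 TPM in WT HSC, and the library labelled WT KL replicate 1 at 25.7 TPM. For Ifi35 the log2 fold change was 0.86 ± 0.22 (SE, adjusted p = 0.329) and for Igtp 0.82 ± 0.25 (SE, adjusted p = 0.456). In these 4 genes all 3 Evi1 HSC libraries lay above both WT HSC libraries, and none of the 4 passed the threshold. Among the receptor chains the log2 fold change was -0.13 for Ifnar1, 0.13 for Ifnar2, -0.09 for Ifngr1 and 0.42 for Ifngr2.

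Replicate 2 of Evi1 HSC stood apart from the other 2 Evi1 HSC libraries. It was the highest of the 3 Evi1 HSC libraries in 34 of the 40 genes (85%), against 23.3% of genes tested. It reached at least 2 times the mean of replicates 1 and 3, on TPM + 1, in 15 of the 40 (37.5%), against 1.79% of genes tested, and at least 3 times in 7 (17.5%), against 0.411%. Among the genes tested, the ratio of TPM was widest for Mx1 (10.6 TPM against 0.938 and 2.93), Ifit1 (26.8 TPM against 3.36 and 6.78) and Mx2 (18.2 TPM against 2.02 and 5.81). Irf7, Rtp4, Isg15, Xaf1 and Oasl2 followed. Replicate 1 was the highest for Ifngr1, Ifngr2, Irf1, Gbp2 and Gbp3, and replicate 3 for Ifnar1. Leaving replicate 2 out lowered the median log2 fold change of the 40 genes in Evi1 HSC against WT HSC from 0.58 to 0.42, and the number at least 2-fold higher from 8 (20%, against 1.44% of genes tested) to 1, Ifi27 (2.5%, against 1.81%). Leaving out replicate 1 or replicate 3 gave 15 in each case (37.5%, against 1.68% and 1.73%). Of the 8 marker lists for other cell types, summed without Bst2, replicate 2 held the lowest level of the 3 Evi1 HSC libraries in 5, the middle in 2 and the highest in 1. Summed macrophage markers were 20.3, 16.5 and 19.4 TPM, erythroid markers 3197, 1118 and 1420 TPM and endothelial markers 239, 227 and 259 TPM. Granulocyte and monocyte markers were 32.2, 34.8 and 37.6 TPM, and megakaryocyte markers 149, 154 and 198 TPM. Genes at 1 TPM or more numbered 18655, 18258 and 18735, and the part of these measures in the levels of replicate 2 was not tested.

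**Figure D4:**
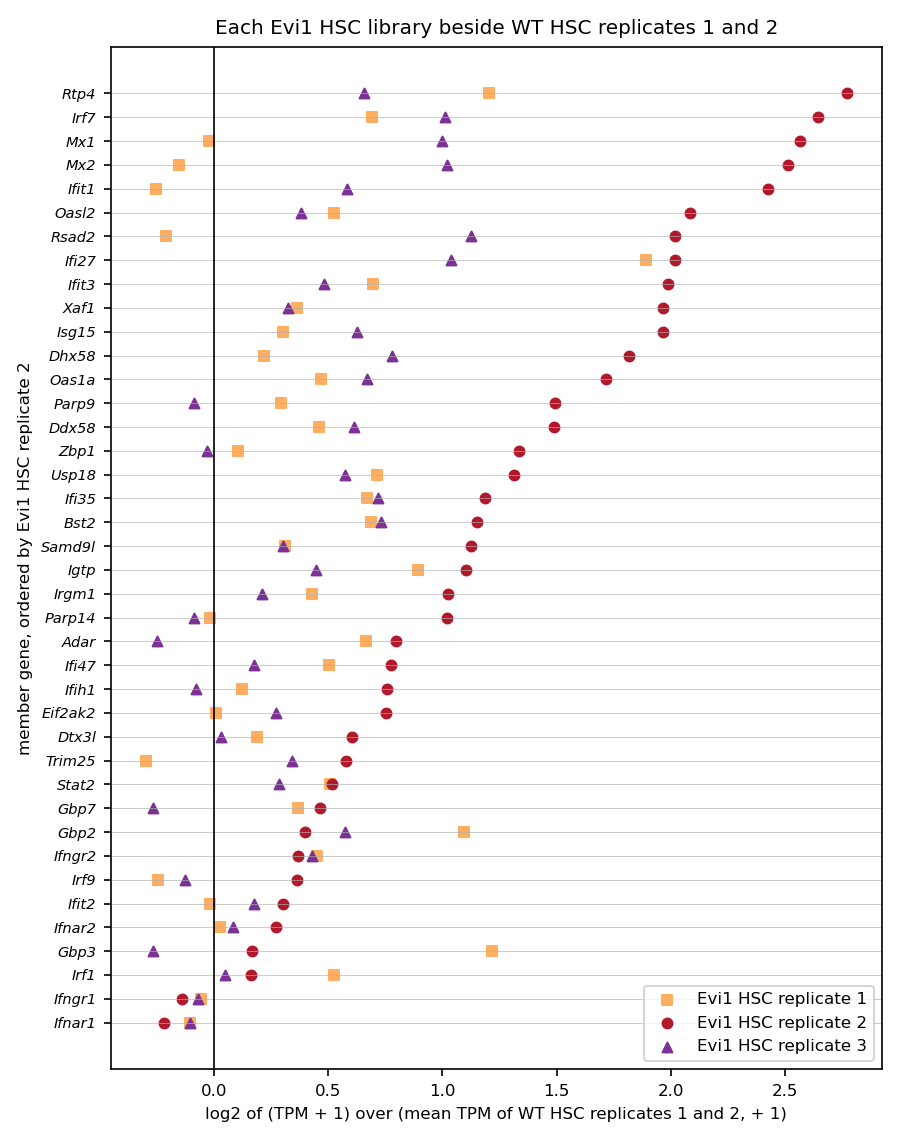
For each of the 40 genes, log2 of TPM + 1 in each Evi1 HSC library over the mean TPM of WT HSC replicates 1 and 2, plus 1, ordered by replicate 2. Circles (replicate 2) lie to the right of squares (replicate 1) and triangles (replicate 3) in 34 rows, and the 2 rows at the foot, Ifngr1 and Ifnar1, have all 3 libraries left of 0.

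The rest of the pathway was described with 123 listed genes that are not among the 40. In WT HSC against WT KL, 90 were tested, of which 55 were called higher (61.1%, against 26.7% of all genes tested) and 1, Pnpt1, lower (1.11%, against 10.8%), while 34 were not called. Their median log2 fold change was 0.74, against 0.26 over all genes tested. Interferon ligands were nearly undetected: 1 of 21, Ifnk, was tested and not called, at 0.619 to 3.65 TPM, and 12 were listed at 0 in all 9 libraries. Among kinases, factors and inhibitors, 17 of 20 were tested and 9 called higher (52.9% of those tested, median of the list 0.59), the kinases Jak1 and Tyk2 and the factor Stat3 among them. The most abundant were Ptpn6, Stat3 and Jak2. Ptpn6, a phosphatase that damps receptor signalling, stood at 112, 105 and 108 TPM in Evi1 HSC, 93.4 and 98.5 TPM in WT HSC, and 34.7 and 28.5 TPM in WT KL (32.9 and 102 TPM in the libraries against their labels). Stat3 stood at 74.4, 87.5 and 88.4 TPM in Evi1 HSC, 68.7 and 68.5 TPM in WT HSC, and 23.6 and 25.2 TPM in WT KL (14.3 and 69.9 TPM). Jak2, which acts at the type II receptor, was more even across the groups, at 44.6, 36.7 and 42.7 TPM in Evi1 HSC, 37.3 and 50.9 TPM in WT HSC, and 32.6 and 38.3 TPM in WT KL (33.7 and 42.9 TPM).

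Of 16 sensors and adaptors in the tables, 14 were tested and 6 called higher in WT HSC than in WT KL. That was 42.9% of those tested, against 26.7% of all genes tested, with a median log2 fold change of 0.52 against 0.26. Samhd1, which removes nucleotides that viruses need, stood at 80.9, 104 and 105 TPM in Evi1 HSC, 70.9 and 97.3 TPM in WT HSC, and 28.3 and 26.5 TPM in WT KL (25.1 and 95.4 TPM in the libraries against their labels). It was high in the HSC gates, whereas Zc3hav1, which binds viral RNA, was not called and stood higher in WT KL than in WT HSC, at 33.6, 48.8 and 34.6 TPM in Evi1 HSC, 33.4 and 33.9 TPM in WT HSC, and 48.5 and 47.8 TPM in WT KL (44.1 and 29.8 TPM). Of 66 other interferon-stimulated genes, 58 were tested, with 40 called higher (69.0%) and 1 lower, and the median of the list was 1.70. The most abundant were B2m, the light chain of MHC class I, Psme1, a proteasome activator, and Lgals9, a galectin. B2m stood at 690.3, 498 and 409 TPM in Evi1 HSC, 339.8 and 358 TPM in WT HSC, and 112 and 91.4 TPM in WT KL (99.96 and 518 TPM). Psme1 ran from 175 to 207 TPM in the 5 HSC-gate libraries and stood at 92.0 and 77.2 TPM in WT KL, and Lgals9 ran from 129.9 to 182 TPM and stood at 69.8 and 74.9 TPM. In Evi1 HSC against WT HSC, limma called 0 of these 123 genes (lowest adjusted p = 0.140), with 17 higher and 0 lower at an unadjusted p under 0.05 (18.9% of those tested, against 8.4% of all genes). In Evi1 HSC against WT KL it called 68 higher (75.6%, against 31.3%) and 2 lower, Mavs and Pnpt1 (2.22%, against 14.3%).

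Markers of other cell types differed between the gates along with the interferon genes. Summed granulocyte and monocyte markers were 32.2 to 37.6 TPM in Evi1 HSC, 39.6 and 25 TPM in WT HSC and 618 and 2074 TPM in WT KL, with 7 of 8 called lower in WT HSC than in WT KL, and Ctsg, S100a8 and S100a9 were listed at 0 in every HSC-gate library. Summed endothelial markers were 227 to 259 TPM, 156 and 238 TPM, and 3.54 and 4.77 TPM in the same order, with 6 of 8 called higher in WT HSC. Megakaryocyte markers were 149 to 198 TPM, 213 and 216 TPM, and 16.4 and 17.8 TPM, with 4 of 6 called higher. Macrophage markers were low in all groups, at 16.5 to 20.3 TPM, 9.34 and 15.4 TPM, and 10.03 and 12.8 TPM, with 1 of 9 called higher, 1 lower and 6 not tested. Of the 9 lymphoid and plasmacytoid dendritic markers, Bst2, which is also one of the 40 genes, and Flt3 were called higher in WT HSC than in WT KL, Nkg7 was called lower and 6 were not tested. Summed without Bst2 they were 10.9 to 16.7 TPM, 9.67 and 10.7 TPM, and 40.2 and 9.85 TPM, and Siglech and Cd3e of that list were listed at 0 in all 9 libraries. Of all genes tested in that comparison, 26.7% were called higher and 10.8% lower. Ly6a, which encodes the gating antigen Sca-1 and is known to be interferon-inducible, was at 20.7 to 58.6 TPM in Evi1 HSC, 13.2 and 17.6 TPM in WT HSC, and 0 and 0.0354 TPM in WT KL. In Evi1 HSC against WT HSC over the 7 libraries, limma called 3 of 10 erythroid markers lower, Klf1, Gata1 and Epor. None of these 3 was called over the 9 libraries. The other 7 erythroid markers were not called over the 7 libraries. Of the 10, the mean was higher in Evi1 HSC for 4 and lower for 6. Erythroid sums ran from 1118 to 3197 TPM across the Evi1 HSC libraries, while the WT HSC sums were 995 and 1346 TPM. Among all genes tested, 0.149% were called lower over the 7 libraries and 0.0565% higher. No tested marker of granulocytes and monocytes, endothelium, megakaryocytes or macrophages was called in that comparison in either fit. The part of these differences in the levels of the interferon genes was not tested.

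The library labelled WT HSC replicate 3 lay below both other WT HSC libraries in 36 of the 40 genes, against 56.7% of genes tested. Against the range of WT KL replicates 2 and 3 it was within in 14, above in 14 and below in 12 (36.6%, 26.6% and 36.7% of genes tested). The library labelled WT KL replicate 1 lay above both other WT KL libraries in 39 of 40 genes, against 56.0% of genes tested. Against the range of WT HSC replicates 1 and 2 it was within in 13, above in 18 and below in 9 (38.0%, 32.5% and 29.5% of genes tested). Against the 3 Evi1 HSC libraries it was within in 18, below in 20 and above in 2 (51.9%, 22.1% and 26.1%).

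By gene ID, all 40 genes were found in GENCODE M21 (GRCm38), and 16 lay within 500000 bases of another of the 40. Ifnar1, Ifnar2 and Ifngr2 sat together on chromosome 16, where Mx1 with Mx2 and Parp9 with Dtx3l and Parp14 formed 2 further groups. Ifit1, Ifit2 and Ifit3 lay together on chromosome 19, Gbp2, Gbp3 and Gbp7 on chromosome 3, and Ifi47 and Irgm1 on chromosome 11. Of the 40 genes, 9 shared more than 5% of their exonic bases with another gene, with the largest shares in Adar and Ifi35 (16.8% each) and in Rtp4 (13.9%), and Parp9 and Dtx3l overlapped each other on opposite strands. With the use of strand in counting not given in the sources used here, reads of such pairs cannot be told apart. The Ifit, Gbp, Oas, Mx and immunity-related GTPase genes have near relatives between which reads may have been split, so the values of their single members are uncertain.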

How the data were processed

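RNA was measured in 9 libraries, 3 per group. The deposited files give TPM per gene per library, per the file headers, with none pooled. The values of WT HSC replicate 2, under the heading C_H3, were used as TPM. Named in the submitters' processing notes are HISAT2, StringTie and mm10, with roles, versions and annotation not given in the sources used here. Since TPM keeps no read depth, the depth and counting error are unknown and no count model was used.

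From the authors' TPM, log2(TPM + 1) was computed here and fitted by limma 3.58.1 (R 4.3.3) to the 19461 of 55488 genes that reached 1 TPM in 3 or more libraries, with a mean per group, a mean-variance trend and Benjamini-Hochberg adjustment. The fit was tested on simulated data. It was made over 9 libraries and over 7, without those labelled WT HSC replicate 3 and WT KL replicate 1. Alternatives were another pseudocount, other filters, rescaling, quantile normalisation, no trend, the compared groups only, a replicate block, and each library left out. Genes named were the 40, with values in every library for those called in a comparison, and of other pathway genes the 3 most abundant per list, apart from some not reported here. The 40 genes and the lists were chosen with earlier results of these data known.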

Additional observations from a re-analysis of the deposited data

How the results depend on the processing

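With quantile normalisation, 16 of the 40 genes were called in WT HSC against WT KL over 7 libraries, against 27, and the log2 fold change of Ifngr2 turned to -0.23 (adjusted p = 0.329). Ifi35, not called, was at -0.35 there when WT KL replicate 3 was left out and at 0.089 when WT KL replicate 2 was (adjusted p = 0.844). The cause was not tested. With 1 library left out at a time, the median log2 fold change of the 40 genes in WT HSC against WT KL was 1.77 to 2.01 (0.21 to 0.31 over all genes tested). In Evi1 HSC against WT KL it was 2.19 to 2.77 (0.23 to 0.33). Fewer of the 40 genes, and fewer of all genes, were called in both comparisons when a library of WT HSC or WT KL compared there was left out. A lone library left in a group was assumed to vary like the others. None of the 40 was called in Evi1 HSC against WT HSC. Over the 9 libraries as labelled, leaving out 1 gave 0 to 2 calls among the 40 genes in Evi1 HSC against WT KL and 0 in the other 2 comparisons. The 2 came without WT KL replicate 1, where 96 of all genes were called. No called gene reversed under an alternative: 16 of 27 calls in WT HSC against WT KL and 26 of 38 in Evi1 HSC against WT KL held in every one. The number of all genes called in Evi1 HSC against WT HSC was 40. It was 0 with a replicate block, 6 with the compared groups only and 73 with no filter, and 5 to 27 with 1 library left out, the 5 without WT HSC replicate 1. Whether the replicate numbers pair the samples could not be told from the values. Same-numbered libraries had correlated deviations of -0.06 to -0.007 over 7 libraries, but in a group of 2 libraries the deviations mirror each other. Over the 9 libraries the correlations were -0.64 to 0.70, with the 2 libraries against their labels among them. With a replicate block over the 7 libraries, 22 of the 40 genes were called in WT HSC against WT KL, with 4947 of all 19461 genes. In Evi1 HSC against WT KL 36 of the 40 were called, with 7526 of all genes, and in Evi1 HSC against WT HSC 0. Depth is unknown, so a gene listed at 0 was only not detected.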
